A study of Mus musculus with 36 samples.

Results

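The genes described here are 40 mouse genes of fatty acid uptake, storage and oxidation, measured by RNA-seq in whole hearts. They were taken by symbol from a table of 25626 genes and were all found. By step they comprise 4 genes of uptake, 4 of activation and thioester hydrolysis, 3 of malonyl-CoA turnover, 6 of the carnitine shuttle, 13 of beta oxidation, 3 of electron transfer, 2 of fuel selection and uncoupling, and 5 of triglyceride storage and lipolysis. Members, and the further gene lists used below, were set by function, with no value in these hearts used as a rule. Earlier results of these data were known when they were chosen.

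The heart draws most of its ATP from long-chain fatty acids. Lipoprotein lipase and membrane transporters bring the acids to the cardiomyocyte, acyl-CoA synthetases activate them, and carnitine palmitoyltransferases carry the acyl group into mitochondria, where the entry step is held back by malonyl-CoA. Inside, the beta oxidation spiral shortens the chain and passes electrons through electron transfer flavoprotein to the respiratory chain, while surplus acyl groups are stored as triglyceride in lipid droplets. Many of these genes are known targets of PPAR-alpha and its coactivator PGC-1alpha, and their transcripts are known to fall in the pressure-loaded, failing heart.

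The 36 libraries of whole-heart RNA formed 6 groups of 6, and the labels state neither the age and strain of the animals nor whether hearts were pooled. The groups were cSirt4-Tg-TAC-MQ (genotype cSirt4-Tg, transverse aortic constriction, MitoQ), Con-TAC-MQ (control genotype, constriction, MitoQ), cSirt4-Tg-TAC (cSirt4-Tg, constriction, vehicle), Con-TAC (control, constriction, vehicle), cSirt4-Tg-Sham (cSirt4-Tg, sham operation, vehicle) and Con-Sham (control, sham operation, vehicle). Transverse aortic constriction, TAC, is a surgical narrowing of the aorta that puts the left ventricle under pressure, and MitoQ is a ubiquinone-derived antioxidant that accumulates in mitochondria. Sirt4 is a mitochondrial sirtuin; the construct and promoter behind the label cSirt4-Tg, and the time after surgery, are also not stated in the labels.

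Values are normalized counts, that is, reads per gene divided by 1 size factor per library, and 3 values given together for a group are always the lowest, the median and the highest of its 6 libraries. Libraries held 14834719 to 60010648 reads. A gene was called where its adjusted p from a limma fit across 16275 expressed genes was under 0.05, and all 40 genes passed the filter on low values, which asked for at least 10 normalized counts in at least 6 of the 36 libraries. Log2 differences are the first group named minus the second, on log2(value + 1). Cardiomyocyte markers were abundant in all groups, with Myh6 alone at a median of 722102 normalized counts in cSirt4-Tg-TAC-MQ.

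Sirt4 itself was not clearly higher in any group labelled cSirt4-Tg. It averaged 349 ± 22.5 normalized counts in cSirt4-Tg-TAC-MQ and 353 ± 18.6 in Con-TAC-MQ, 362 ± 57.8 in cSirt4-Tg-TAC and 341 ± 49.6 in Con-TAC, and 377 ± 48.0 in cSirt4-Tg-Sham and 412 ± 96.6 in Con-Sham (SD, n = 6 each). Genotypes are therefore given below as the labels have them. Across all expressed genes 5 libraries correlated less with the others of their group, with a median r under 0.96: Con-TAC-MQ 3 at 0.945, cSirt4-Tg-TAC 4 at 0.919, cSirt4-Tg-TAC 6 at 0.926, Con-TAC 6 at 0.932 and Con-Sham 2 at 0.952. Nppa, a natriuretic peptide gene known to rise with load, was 3535 normalized counts in cSirt4-Tg-TAC 6, against 94193 to 245197 in the other 5 libraries of that group. In Con-Sham it was 4266 to 7403, so by this gene the library labelled cSirt4-Tg-TAC 6 went against its label and lay below every Con-Sham library. Con-TAC-MQ 1, at 3905, also lay below every Con-Sham library. Nppa varied widely in the other TAC groups too, from 10111 to 111264 in Con-TAC and up to 32600 in Con-TAC-MQ. Results below are given with all libraries and, where it matters, without the 5 libraries of low correlation, an alternative added after the data were seen. As the 5 were picked for their distance from their group in these same data, leaving them out tends to narrow the spread. The adjusted p-values and counts of that fit describe the data and are no separate test.

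Levels per kilobase of exon differed widely among the 40 genes. Averaged over all 36 libraries, Fabp3, the cytosolic carrier of fatty acids, was highest at 56808 normalized counts per kilobase. Acadl, a long-chain acyl-CoA dehydrogenase, followed at 15223, and Lpl and Cd36 at 13567 and 13557. At the other end stood Acaca at 16.9, Cpt1b at 32.2, Acot1 at 49.0 and Cpt1a at 179.7 normalized counts per kilobase. The level of Cpt1b, which encodes the muscle form of carnitine palmitoyltransferase 1, is uncertain: 2744 of its 3372 exon bases lie within the exons of Gm44502 on the same strand. Of its 50-base stretches, 93.0% also occur in other annotated genes. Gm44502 itself is not among the 25626 genes with deposited values. Levels of other genes are uncertain to a lesser degree, Etfb with 67.3%, Hadhb with 62.4%, Acaca with 52.6%, Acot1 with 33.2%, Fabp3 with 29.2%, Acot2 with 27.7% and Slc22a5 with 27.1% of stretches shared.

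Taken as one mean log2 level per library, the 40 genes were lowest in cSirt4-Tg-TAC. The mean was 12.44 ± 0.14 in cSirt4-Tg-TAC-MQ, 12.57 ± 0.34 in Con-TAC-MQ, 12.03 ± 0.47 in cSirt4-Tg-TAC, 12.50 ± 0.39 in Con-TAC, 12.52 ± 0.12 in cSirt4-Tg-Sham and 12.77 ± 0.11 in Con-Sham (SD, n = 6 each). Of the 40 genes, 33 had their lowest group mean in cSirt4-Tg-TAC and 31 their highest in Con-Sham. Relative to the mean of Con-Sham, the median ratio over the genes was 0.377 to 0.644 in cSirt4-Tg-TAC libraries 1 to 5 and 1.09 in library 6. It was 0.712 to 0.882 in cSirt4-Tg-TAC-MQ and 0.789 to 0.909 in cSirt4-Tg-Sham. In the control genotype 1 library in each TAC group lay apart: Con-TAC-MQ 3 at 0.563, against 0.864 to 1.02 in the rest, and Con-TAC 6 at 0.550, against 0.80 to 1.12.

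The steps shared this order of groups to different degrees. For the 13 beta oxidation genes the mean log2 level was 13.67 ± 0.12 in cSirt4-Tg-TAC-MQ, 13.80 ± 0.30 in Con-TAC-MQ, 13.26 ± 0.58 in cSirt4-Tg-TAC, 13.81 ± 0.45 in Con-TAC, 13.83 ± 0.11 in cSirt4-Tg-Sham and 14.09 ± 0.09 in Con-Sham (SD, n = 6 each). For the 6 carnitine shuttle genes it was 10.80 ± 0.12, 10.90 ± 0.30, 10.30 ± 0.39, 10.65 ± 0.29, 10.79 ± 0.15 and 10.91 ± 0.10 in the same order of groups. For the 3 electron transfer genes cSirt4-Tg-TAC-MQ, at 11.73 ± 0.12, lay close to cSirt4-Tg-TAC, at 11.66 ± 0.62, and below cSirt4-Tg-Sham, at 12.08 ± 0.14. Only Etfb had a lower mean in cSirt4-Tg-TAC-MQ, 57.4% of that in cSirt4-Tg-Sham, than in cSirt4-Tg-TAC, 77.5%. Etfa stood at 87.3% and 83.6% and Etfdh at 94.1% and 81.5%. The level of Etfb is uncertain, as 617 of its 1164 exon bases lie within the exons of Gm45233 on the same strand. Gm45233 is not among the genes with deposited values either. In the carnitine shuttle, cSirt4-Tg-TAC-MQ lay at the level of cSirt4-Tg-Sham.

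**Figure D1:**
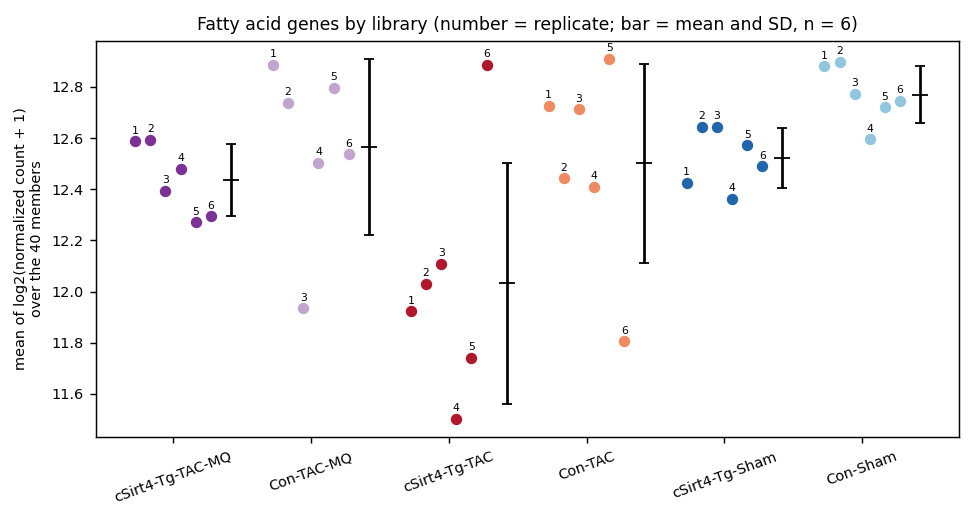
Mean log2(normalized count + 1) of the 40 genes in each library, by group, with the replicate number beside each point and the group mean and SD (n = 6) as a bar. In cSirt4-Tg-TAC library 6 sits at 12.89 and the other 5 at or below 12.11, and Con-TAC-MQ 3 and Con-TAC 6 sit below the rest of their groups.

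The genes moved together within groups as well as between them. The library labelled cSirt4-Tg-TAC 6 was the highest of its group in 34 of the 40 genes, 85.0%, against 29.1% of all genes tested, and cSirt4-Tg-TAC 4 was the lowest in 32, 80.0%, against 29.9%. Con-TAC-MQ 3 was the lowest of its group in 36 genes, against 29.8% of all genes tested, and Con-TAC 6 in 36, against 27.4%. The median coefficient of variation over the 40 genes was 10.3% in cSirt4-Tg-TAC-MQ, 20.9% in Con-TAC-MQ, 42.1% in cSirt4-Tg-TAC, 23.8% in Con-TAC, 12.9% in cSirt4-Tg-Sham and 11.6% in Con-Sham. Over all genes tested the medians were 11.7% in cSirt4-Tg-TAC-MQ, 18.7% in Con-TAC-MQ, 24.3% in cSirt4-Tg-TAC, 21.1% in Con-TAC, 17.0% in cSirt4-Tg-Sham and 14.6% in Con-Sham. The 40 genes thus varied more than all genes in Con-TAC-MQ, cSirt4-Tg-TAC and Con-TAC and less in cSirt4-Tg-TAC-MQ and both sham groups. After the group means were removed, each gene was compared with the mean of the other 39 across the 36 libraries, which share depth, scaling and cell composition. The correlation had a median of 0.892 and was over 0.8 for 27 genes, with Decr1, an auxiliary enzyme for unsaturated fatty acids, highest at 0.964.

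Promoter sequences of 33 of the 40 genes, 38 in all, were in the RefSeq table for GRCm38.p6, each running from 250 bases before to 50 after a transcript start. PPAR-alpha with RXR and the estrogen-related receptors bind DNA at sites built on the hexamer AGGTCA, and this hexamer was looked for on both strands. It occurred in 10 of the 38 promoters, 26.3%, from 9 genes (Acacb, Acadm, Acadvl, Cd36, Cpt1a, Echs1, Lpin1, Plin5 and Ucp3), against 16.3% of the 32851 promoters in the table. Shown here are the promoters of Acacb, Lpin1 and Acadm. Lpin1 had the smallest adjusted p of the 40 both in cSirt4-Tg-TAC against cSirt4-Tg-Sham and in cSirt4-Tg-TAC-MQ against cSirt4-Tg-TAC. Acacb came next in both. Acadm is the medium-chain acyl-CoA dehydrogenase and a textbook PPAR-alpha target. The capitals mark the hexamer or its reverse complement, and a match describes the letters alone. In Acacb, at chr5:114165268-114165567 on the + strand of GRCm38.p6, the reverse complement starts at position 44, counted from the first transcribed base as 1. In Lpin1, at chr12:16610917-16611216 on the - strand, the hexamer starts at -74, and in Acadm, at chr3:153944594-153944893 on the - strand, the reverse complement starts at -249.
Acacb: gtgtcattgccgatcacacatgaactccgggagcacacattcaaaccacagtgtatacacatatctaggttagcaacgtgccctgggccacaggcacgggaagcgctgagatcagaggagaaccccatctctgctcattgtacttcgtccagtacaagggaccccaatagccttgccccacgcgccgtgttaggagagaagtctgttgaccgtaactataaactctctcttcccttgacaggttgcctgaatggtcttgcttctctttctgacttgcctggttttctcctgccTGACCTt
Lpin1: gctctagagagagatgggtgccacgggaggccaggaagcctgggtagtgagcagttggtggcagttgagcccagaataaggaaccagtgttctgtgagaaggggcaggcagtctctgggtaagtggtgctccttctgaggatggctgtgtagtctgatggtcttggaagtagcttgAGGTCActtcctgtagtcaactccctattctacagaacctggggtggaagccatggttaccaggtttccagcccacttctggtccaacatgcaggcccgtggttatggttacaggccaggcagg
Acadm: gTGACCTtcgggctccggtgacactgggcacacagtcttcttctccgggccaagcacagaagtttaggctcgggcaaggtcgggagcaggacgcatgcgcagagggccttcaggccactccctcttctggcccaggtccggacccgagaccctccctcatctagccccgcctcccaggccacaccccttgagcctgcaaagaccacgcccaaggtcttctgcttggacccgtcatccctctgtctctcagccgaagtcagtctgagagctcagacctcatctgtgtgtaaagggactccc

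In hearts labelled cSirt4-Tg, genes at most steps of the pathway were lower after TAC. Of the 40 genes, 17 fell in cSirt4-Tg-TAC against cSirt4-Tg-Sham and none rose, where 16.7% of all genes tested were called, 8.77% as lower. The median log2 difference of the 40 genes was -0.48, against -0.01 over all genes tested, and 37 of the 40 were negative. The fallen genes comprised 3 of 4 uptake genes, 1 of 4 of activation and thioester hydrolysis, 1 of 3 of malonyl-CoA turnover, 2 of 6 of the carnitine shuttle, 8 of 13 of beta oxidation, 0 of 3 of electron transfer, 0 of 2 of fuel selection and uncoupling, and 2 of 5 of storage and lipolysis. In each of the 17, library 6 of cSirt4-Tg-TAC was the one library that did not lie below the mean of the log2 values in cSirt4-Tg-Sham. Cpt1b and Lpin1 in that library, at 120.2 and 5723 normalized counts, lay just below the mean of the untransformed sham values, 126.2 and 5744. No gene of the 40 had groups that did not overlap, against 2.21% of all genes tested.

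Among the uptake genes, Cd36, which encodes the main sarcolemmal fatty acid translocase, was 25448, 36617 and 56929 normalized counts in cSirt4-Tg-TAC and 44402, 47192 and 52417 in cSirt4-Tg-Sham. The log2 difference was -0.39 (SE 0.13, adjusted p = 0.0397). Lpl, the lipoprotein lipase that frees fatty acids from circulating triglyceride, was 70966, 94837 and 155249.7 in cSirt4-Tg-TAC and 125721, 143311 and 160158 in cSirt4-Tg-Sham, a difference of -0.47 (SE 0.16, adjusted p = 0.0332). The medians of both genes lay below the lowest cSirt4-Tg-Sham library, and their highest cSirt4-Tg-TAC values were within or above the sham range. Slc27a1, a fatty acid transport protein of the plasma membrane, was 2038, 2312 and 5859.7 in cSirt4-Tg-TAC and 3583, 4464 and 5049 in cSirt4-Tg-Sham, a difference of -0.60 (SE 0.21, adjusted p = 0.0404). Fabp3 did not pass the test, with 26142, 49844 and 59608 in cSirt4-Tg-TAC and 34178, 42916 and 47215 in cSirt4-Tg-Sham and a difference of 0.13 (SE 0.17, adjusted p = 0.636).

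Acsl1, the main long-chain acyl-CoA synthetase of the heart, was 10969, 13792 and 27855 normalized counts in cSirt4-Tg-TAC and 18321, 22728 and 26904 in cSirt4-Tg-Sham, and fell by a log2 difference of -0.58 (SE 0.17, adjusted p = 0.0207). Its cSirt4-Tg-TAC median was 60.7% of the cSirt4-Tg-Sham median. Of the thioesterases, which split acyl-CoA back into free acid and CoA, none was called. The cytosolic Acot1 had a difference of -1.12 (SE 0.50, adjusted p = 0.12) and its mitochondrial neighbour Acot2 one of -0.67 (SE 0.27, adjusted p = 0.0822). Acot1 was 26.7, 36.4 and 524 in cSirt4-Tg-TAC, where library 6 was the highest, and 71.2, 121 and 257 in cSirt4-Tg-Sham.

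Acacb, the acetyl-CoA carboxylase of the outer mitochondrial membrane whose malonyl-CoA holds back entry into mitochondria, lies on chromosome 5 at 114284596 to 114388822 (mm39). It was 4762, 5321 and 11480.0 normalized counts in cSirt4-Tg-TAC and 6994, 10571 and 11077 in cSirt4-Tg-Sham, with a log2 difference of -0.74 (SE 0.16, adjusted p = 0.00354). Its median in cSirt4-Tg-TAC was 50.3% of that in cSirt4-Tg-Sham, and libraries 1 to 5 of cSirt4-Tg-TAC all lay below the lowest sham library. Mlycd, which breaks malonyl-CoA down, had 1205, 1870.0 and 4051 in cSirt4-Tg-TAC and 2198, 2646 and 2954 in cSirt4-Tg-Sham and did not pass the test, at -0.44 (SE 0.20, adjusted p = 0.131).

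In the carnitine shuttle, Cpt1b was 37.7, 55.8 and 120.2 normalized counts in cSirt4-Tg-TAC and 59.9, 125 and 194 in cSirt4-Tg-Sham, a log2 difference of -1.02 (SE 0.26, adjusted p = 0.00908), with the reservation about shared sequence given above. Crat, the carnitine acetyltransferase of the matrix, was 5750.3, 9184 and 16246 in cSirt4-Tg-TAC and 11405, 12766 and 14831 in cSirt4-Tg-Sham, a difference of -0.50 (SE 0.16, adjusted p = 0.028). In Crat it was library 6 of cSirt4-Tg-TAC that overlapped the sham libraries, and in Cpt1b also library 1. Cpt1a, the liver form, Cpt2 of the inner membrane, the carnitine carrier Slc25a20 and the carnitine importer Slc22a5 had differences from -0.49 for Cpt2 to -0.24 for Cpt1a, none of which passed the test.

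Beta oxidation, the largest step, held the most calls, 61.5% of its 13 genes, against 75% of the 4 uptake genes. Hadha and Hadhb encode both subunits of the mitochondrial trifunctional protein and are neighbours on chromosome 5, Hadha at 30323302 to 30360160 on the - strand and Hadhb at 30360246 to 30389591 on the + strand (mm39). Hadha was 15244, 24294 and 44291 normalized counts in cSirt4-Tg-TAC and 33960.1, 38363 and 45091 in cSirt4-Tg-Sham, a log2 difference of -0.64 (SE 0.18, adjusted p = 0.0127). Hadhb was 10272, 18025 and 30984 in cSirt4-Tg-TAC and 26548, 28205 and 31073 in cSirt4-Tg-Sham, a difference of -0.65 (SE 0.17, adjusted p = 0.00874). In both genes every cSirt4-Tg-TAC library but the sixth lay below the lowest sham library. Ech1, a dienoyl-CoA isomerase, was 7665, 11237 and 30546 in cSirt4-Tg-TAC and 19049.5, 22622 and 29081 in cSirt4-Tg-Sham, a difference of -0.88 (SE 0.24, adjusted p = 0.0132).

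The other called genes of beta oxidation gave the same order. Hadh, the medium- and short-chain hydroxyacyl-CoA dehydrogenase, differed by -0.74 (SE 0.21, adjusted p = 0.0168) and Acaa2, the mitochondrial thiolase, by -0.93 (SE 0.29, adjusted p = 0.0287). For Decr1 the difference was -0.66 (SE 0.21, adjusted p = 0.0278), for Acadm -0.59 (SE 0.21, adjusted p = 0.0448) and for Echs1, the short-chain enoyl-CoA hydratase, -0.46 (SE 0.15, adjusted p = 0.0347). Acaa2 had the widest spread of them, at 3683, 9868 and 29324 in cSirt4-Tg-TAC against 16566, 17581 and 20759 in cSirt4-Tg-Sham. The dehydrogenases Acadl, Acadvl and Acads, of long, very long and short chains, and the enoyl-CoA isomerases Eci1 and Eci2 had differences from -0.49 for Eci1 to -0.27 for Acadl and were not called. The 3 electron transfer genes, Etfa and Etfb for the flavoprotein's subunits and Etfdh for its ubiquinone oxidoreductase, differed by -0.34, -0.53 and -0.39, with the smallest adjusted p at 0.137 for Etfdh.

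Among the storage genes Lpin1, a phosphatidate phosphatase that makes diacylglycerol and is also known as a coactivator of PPAR-alpha, had the smallest adjusted p of the 40. It was 2113, 3593 and 5723 normalized counts in cSirt4-Tg-TAC and 4599, 5925 and 6707 in cSirt4-Tg-Sham, a log2 difference of -0.69 (SE 0.15, adjusted p = 0.00316). Dgat2, which makes triglyceride from diacylglycerol, was 2499, 4949 and 11293 in cSirt4-Tg-TAC and 6793, 9513 and 12035 in cSirt4-Tg-Sham, a difference of -0.89 (SE 0.27, adjusted p = 0.0234). Libraries 1 to 5 of cSirt4-Tg-TAC lay below every cSirt4-Tg-Sham library in both genes. Pnpla2, the adipose triglyceride lipase, differed by -0.17 (SE 0.12, adjusted p = 0.341), Lipe, the hormone-sensitive lipase, by 0.22 (SE 0.19, adjusted p = 0.434) and Plin5, a droplet coat protein of oxidative tissue, by -0.45 (SE 0.25, adjusted p = 0.214). Ucp3, a mitochondrial uncoupling protein, was 128, 373 and 872 in cSirt4-Tg-TAC and 429, 1038 and 1478 in cSirt4-Tg-Sham, and its difference of -1.36 did not pass the test (adjusted p = 0.088), although all 6 libraries lay below the sham mean.

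**Figure D2:**
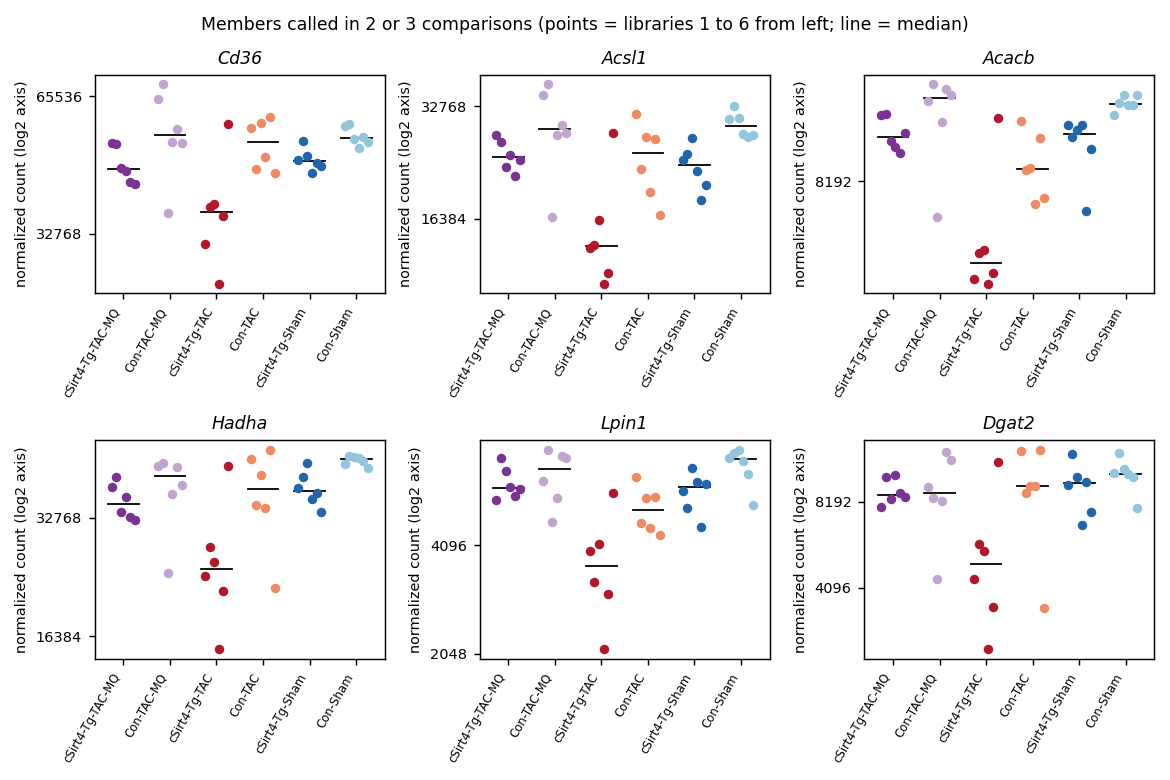
Normalized counts on a log2 axis of 6 called genes in all 36 libraries, libraries 1 to 6 from left within a group and the group median as a line. In cSirt4-Tg-TAC the sixth library stands above the other 5 in each gene, at 11480.0 against at most 5689 for Acacb.

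The count of called genes rested on single libraries in one direction and the other. Without cSirt4-Tg-TAC 6, 33 of the 40 genes fell and 28.3% of all genes tested were called, 14.9% as lower; the 7 not called were Fabp3, Acot13, Acaca, Cpt1a, Pdk4, Pnpla2 and Lipe. Without cSirt4-Tg-TAC 4 the count was 7, where 10.4% of all genes tested were called. That library had the fewest reads of all, 14834719, the lowest mitochondrial share, 13.1%, and white adipocyte markers summing to 34552 normalized counts. The count was also 7 without cSirt4-Tg-TAC 5, 11 without cSirt4-Tg-TAC 1, and 10 or 9 without cSirt4-Tg-Sham 2 or 3. The share of all genes called in the latter fits is not given, so those counts are read as no result about the set. Acacb, Cpt1b, Hadha, Hadhb, Ech1 and Lpin1 kept their calls in each of the 12 fits that left out 1 library of this comparison. With the 5 libraries named above left out, 33 genes fell, where 30.3% of all genes tested were called, 15.4% as lower; there Hadha differed by -0.68 (adjusted p = 2.20e-06) and Acaa2 by -0.98 (adjusted p = 2.25e-06). With edgeR on the recovered reads the count was 10, where 16.5% of all genes tested were called, and in a fit of the 12 libraries alone it was 1, where 4.37% were.

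Other measures moved with this difference, and their part in it was not tested. The summed level of 12 cardiomyocyte markers was 1246358, 1722765 and 2637613 normalized counts in cSirt4-Tg-TAC, with library 6 highest, and 2068521, 2348910 and 2485033 in cSirt4-Tg-Sham; 5 of the 12 markers fell and 1 rose. The sum of 8 fibroblast markers was 36410.1, 110227 and 142562 in cSirt4-Tg-TAC and 40577, 45787 and 56960.2 in cSirt4-Tg-Sham, and 5 of the 8 rose. In whole tissue, fewer cells of a type and less RNA per cell cannot be told apart. The share of reads from mitochondrially encoded genes was 13.1% to 19.6% in cSirt4-Tg-TAC, with a median of 17.6%, and 17.7% to 27.9% in cSirt4-Tg-Sham, with a median of 21.9%. Library names carry a number of unstated meaning, which was 7 to 14 in cSirt4-Tg-TAC 1 to 5 and cSirt4-Tg-Sham 1 to 3 and 29 to 31 in the others of these groups. Among the libraries numbered 7 to 14 alone, 31 of the 40 genes fell, where 17.5% of all genes tested were called, 8.98% as lower; the other class holds a single cSirt4-Tg-TAC library.

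In the control genotype TAC gave no call among the 40 genes, where 5.3% of all genes tested were called. Differences between Con-TAC and Con-Sham were negative for 37 genes, with a median of -0.26 against 0.01 over all genes tested, and 5 had an unadjusted p under 0.05. Slc27a1 had the smallest adjusted p. It was 2304, 3679 and 4459 normalized counts in Con-TAC and 4887, 5272 and 5547 in Con-Sham, a log2 difference of -0.63 (SE 0.21, adjusted p = 0.0608). Acacb was 7254, 8753 and 11311 in Con-TAC and 11687, 12367 and 12986 in Con-Sham, a difference of -0.49 (SE 0.16, adjusted p = 0.0702). In these 2 genes, of the 40, the groups did not overlap, which held for 3.66% of all genes tested. Leaving out Con-TAC 1 gave 2 calls, DESeq2 on the recovered reads 1 and edgeR on them 0. No share of all genes is given beside these counts, so they are read as no result about the set. A fit of the 12 libraries alone gave 4, where 4.78% of all genes tested were called. Leaving out the 5 libraries gave 6, where 15.7% of all genes tested were called. These 6 were Slc27a1, Acaca, Acacb, Cpt1b and Lpin1 as lower and Fabp3 as higher, at 0.43 (adjusted p = 0.0105).

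Whether the response to TAC differed between the genotypes was tested as an interaction, which was called for 0 of the 40 genes and 0.0% of all genes tested. At an unadjusted p under 0.05 there were 949 of the 16275 genes and none of the 40, and the smallest adjusted p among the 40 was 0.853, for Lpl, Cd36 and Dgat2; edgeR and DESeq2 called 0 of the 40. Lpl's interaction was -0.39 on the log2 scale, Cd36's -0.32 and Dgat2's -0.66. In the fit that left out the 5 libraries 12 of the 40 genes were called, all with a more negative TAC difference in hearts labelled cSirt4-Tg, where 2.22% of all genes tested were called, 1.45% in that direction. They were Cpt2, Acadm, Acadvl, Acads, Hadha, Hadhb, Hadh, Ech1, Decr1, Acaa2, Etfdh and Dgat2. Of these 12, 9 are among the 13 beta oxidation genes. Hadh's interaction was -0.74 (adjusted p = 0.00403) there and Dgat2's -1.03 (adjusted p = 0.0107). Of the libraries left out, cSirt4-Tg-TAC 6 was the highest of its group in 34 of the 40 genes, Con-Sham 2 the highest in 26 and Con-TAC 6 the lowest in 36. In those genes leaving them out moves the interaction in the called direction. Leaving out cSirt4-Tg-TAC 4, the lowest of its group in 32, moves it the other way. Leaving out any single library left the count at 0.

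Compared directly, the 2 genotypes after TAC gave 11 fallen genes and none that rose in cSirt4-Tg-TAC against Con-TAC, where 6.48% of all genes tested were called, 3.29% as lower. The median log2 difference of the 40 genes was -0.50, against 0.00 over all genes tested. This comparison shares its cSirt4-Tg-TAC libraries with that against cSirt4-Tg-Sham, and its genotypes are as labelled, with the Sirt4 levels given above. The 11 were Cd36, Lpl, Acsl1, Acacb, Hadha, Hadhb, Ech1, Eci2, Decr1, Etfdh and Lpin1. Lpl was 109929, 161603 and 205933 normalized counts in Con-TAC, against the cSirt4-Tg-TAC values given above, a difference of -0.61 (SE 0.16, adjusted p = 0.0234), and was the called gene with all 6 cSirt4-Tg-TAC libraries below the Con-TAC mean. Cd36 was 44507, 51960.3 and 58994 in Con-TAC, a difference of -0.50 (SE 0.13, adjusted p = 0.0276). Acsl1 was 16715, 24508 and 31163 there, and the difference was -0.64 (SE 0.17, adjusted p = 0.029).

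With all libraries, Eci2 and Etfdh were called in this comparison and in none of the other 6. Eci2 was 1969, 2648 and 3599 normalized counts in cSirt4-Tg-TAC and 2106, 3731 and 4734 in Con-TAC, a log2 difference of -0.45 (SE 0.14, adjusted p = 0.0415). Etfdh was 7135, 11802 and 24085 in cSirt4-Tg-TAC and 11387, 19658 and 23378 in Con-TAC, a difference of -0.62 (SE 0.18, adjusted p = 0.0395). In both genes the groups overlapped at either end, since library 6 was high in cSirt4-Tg-TAC and library 6 was low in Con-TAC. The calls depended on single libraries. Without cSirt4-Tg-TAC 6 there were 30 calls, 29 of them lower and Acaca higher, where 22.4% of all genes tested were called, 11.4% as lower, and without Con-TAC 6 there were 28, where 17.3% were called. The count was 0 when any of cSirt4-Tg-TAC 1, 4 or 5 or Con-TAC 1, 3 or 5 was left out, and each of the 11 genes lost its call in at least 6 of the 12 such fits. Without cSirt4-Tg-TAC 4, 0.823% of all genes tested were called. The count was 4 without cSirt4-Tg-TAC 3, 5 without Con-TAC 2 and 6 without Con-TAC 4. In a fit of the 12 libraries alone the count was 0, and it was also below 11 with edgeR and without the filter. Counts in this comparison without a share of all genes tested beside them are read as no result about the set. In the main fit all groups share 1 estimate of spread per gene. The median coefficient of variation of the 40 genes was 42.1% in cSirt4-Tg-TAC, 23.8% in Con-TAC and 10.3% in cSirt4-Tg-TAC-MQ. When the 5 libraries were left out 33 genes fell and Acaca rose, where 27.7% of all genes tested were called, 13.3% as lower. Among libraries numbered 7 to 14, which are the first 5 of both groups, 33 fell, where 25.2% of all genes tested were called, 12.3% as lower. With the number class as a covariate 29 fell, where 20.4% were called, 10.3% as lower. These fits and the fit without the 5 libraries all leave out or set apart cSirt4-Tg-TAC 6 and Con-TAC 6. They are therefore not separate checks. The cardiomyocyte marker sum was 1246358, 1722765 and 2637613 normalized counts in cSirt4-Tg-TAC and 1444447, 2297691 and 2562752 in Con-TAC. The sum of 8 fibroblast markers was 36410.1, 110227 and 142562 in cSirt4-Tg-TAC and 28511, 41059 and 75907 in Con-TAC, with library 6 of Con-TAC its highest, and 3 of the 8 markers were higher in cSirt4-Tg-TAC than in Con-TAC. Of 8 macrophage markers 5 were higher, and 1 of 12 cardiomyocyte markers was lower; the part of these in the result was not tested.

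Under sham operation no gene of the 40 was called between cSirt4-Tg-Sham and Con-Sham, where 0.873% of all genes tested were called. Differences were negative for 36 genes, with a median of -0.24 against 0.00 over all genes tested, and 2 had an unadjusted p under 0.05; edgeR and DESeq2 also called 0. Acsl1 was 18321, 22728 and 26904 normalized counts in cSirt4-Tg-Sham and 27067, 28952 and 32801 in Con-Sham, a log2 difference of -0.39 (SE 0.17, adjusted p = 0.329). Its groups did not overlap, nor did those of Acacb, Acadm, Acadvl and Decr1, which made 5 of 40 genes, against 3.89% of all genes tested. Acacb was 6994, 10571 and 11077 in cSirt4-Tg-Sham and 11687, 12367 and 12986 in Con-Sham, at -0.33 (SE 0.16, adjusted p = 0.382). A fit of these 12 libraries alone called 11 of the 40 as lower, where 5.4% of all genes tested were called, 1.44% as lower. The fit without the 5 libraries called 6 (Acsl1, Acot1, Acacb, Ech1, Eci1 and Etfa), all as lower, where 6.0% of all genes tested were called, 1.48% as lower. The cardiomyocyte marker sum was 2068521, 2348910 and 2485033 normalized counts in cSirt4-Tg-Sham and 2500208, 2559807 and 2791680 in Con-Sham, so that the groups did not overlap, and none of the 12 markers was called. The fibroblast marker sum was 40577, 45787 and 56960.2 in cSirt4-Tg-Sham and 25708, 28334 and 29156 in Con-Sham, again without overlap, with 1 of 8 markers higher. The macrophage marker sum was 11519, 14169 and 17147 in cSirt4-Tg-Sham and 6420.1, 7338 and 8745 in Con-Sham, without overlap and with 5 of 8 higher; the part of these lists in the differences was not tested. Sirt4 averaged no more in cSirt4-Tg-Sham than in Con-Sham.

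**Figure D3:**
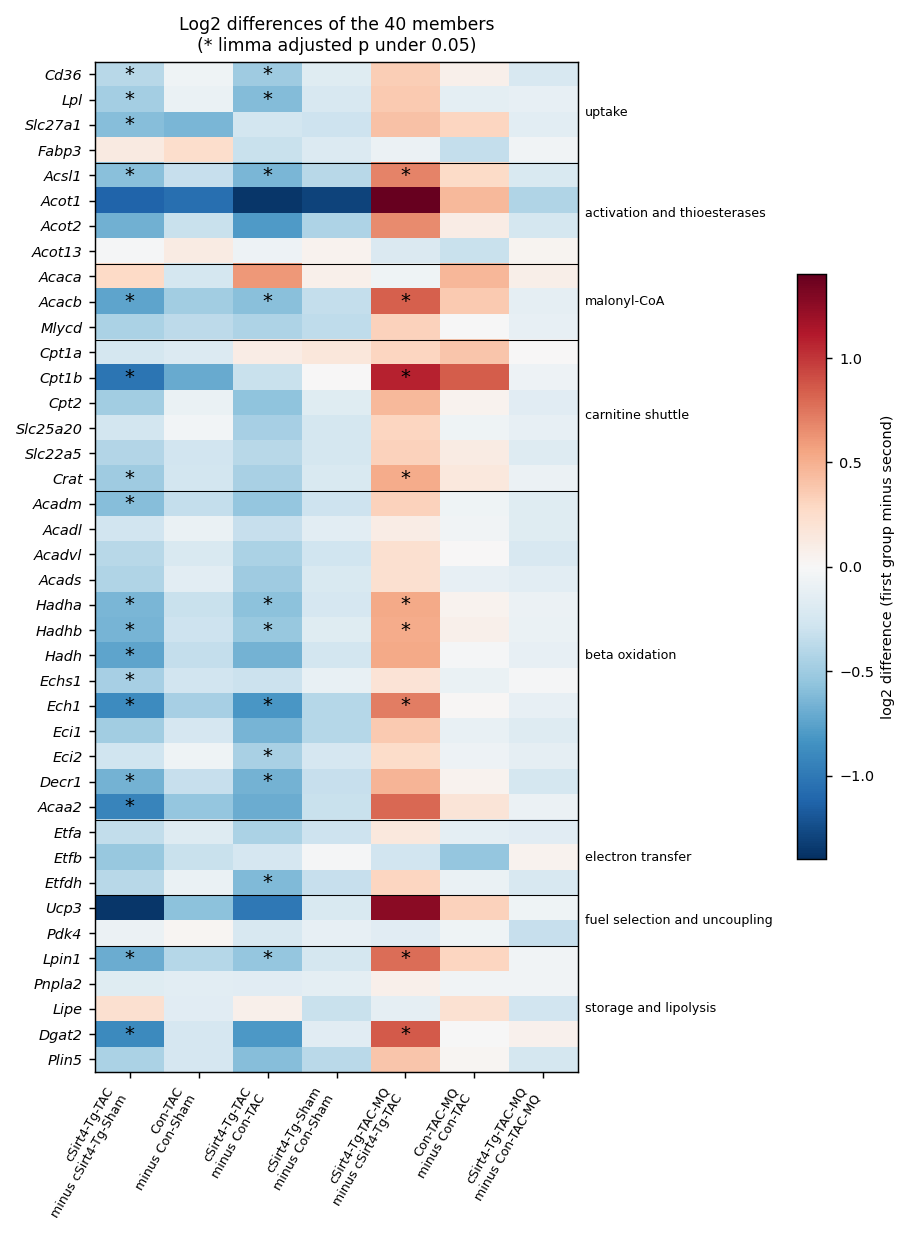
Log2 differences of the 40 genes in 7 comparisons, first group minus second, with red for higher and blue for lower in the first group and an asterisk for a limma adjusted p under 0.05. The asterisks fall in the columns for cSirt4-Tg-TAC against cSirt4-Tg-Sham (17), cSirt4-Tg-TAC against Con-TAC (11) and cSirt4-Tg-TAC-MQ against cSirt4-Tg-TAC (9), which all hold the cSirt4-Tg-TAC group.

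With MitoQ, 9 of the 40 genes were higher in cSirt4-Tg-TAC-MQ than in cSirt4-Tg-TAC and none was lower, where 17.3% of all genes tested were called, 9.89% as higher. The median log2 difference of the 40 genes was 0.35, against 0.00 over all genes tested. The 9 were Acsl1, Acacb, Cpt1b, Crat, Hadha, Hadhb, Ech1, Lpin1 and Dgat2, each with all 6 MitoQ libraries above the cSirt4-Tg-TAC mean. None of the 40 had groups that did not overlap, against 6.57% of all genes tested. The comparison shares its cSirt4-Tg-TAC libraries with those above. MitoQ libraries carry the numbers 20 or 21 and the cSirt4-Tg-TAC libraries others, so that the number and MitoQ cannot be told apart in this comparison. A fit with the number class as a covariate, which rests on Con-TAC 6 as the one vehicle library of that class, called 26 of the 40 as higher, where 15.7% of all genes tested were called, 7.82% as higher.

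Lpin1 was 5456, 5911 and 7127 normalized counts in cSirt4-Tg-TAC-MQ, against 2113, 3593 and 5723 in cSirt4-Tg-TAC, a log2 difference of 0.78 (SE 0.15, adjusted p = 0.000787). Acacb was 9534, 10368 and 11736 in cSirt4-Tg-TAC-MQ, a difference of 0.83 (SE 0.16, adjusted p = 0.000934), and Acsl1 21356, 23921 and 27495, a difference of 0.70 (SE 0.17, adjusted p = 0.00625). In these 3 genes all 6 MitoQ libraries lay above libraries 1 to 5 of cSirt4-Tg-TAC, and some or all of them below library 6. Cpt1b was 96.4, 124 and 169 in cSirt4-Tg-TAC-MQ, a difference of 1.08 (SE 0.26, adjusted p = 0.00543). For Dgat2 the MitoQ values were 7829, 8654 and 10125, a difference of 0.86 (SE 0.27, adjusted p = 0.0263), and for Ech1 17986, 19762 and 25419, a difference of 0.72 (SE 0.24, adjusted p = 0.0353). Hadha and Hadhb differed by 0.53 (SE 0.18, adjusted p = 0.033) and 0.52 (SE 0.17, adjusted p = 0.0314), and Crat by 0.52 (SE 0.16, adjusted p = 0.022).

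The uptake genes were not called with MitoQ. Cd36 was 42029, 45398 and 51698 normalized counts in cSirt4-Tg-TAC-MQ, a log2 difference of 0.35 (SE 0.13, adjusted p = 0.0641) from cSirt4-Tg-TAC, and Lpl 113080.3, 134711 and 142006, a difference of 0.36 (SE 0.16, adjusted p = 0.101). Without cSirt4-Tg-TAC 6 both were called, Cd36 at 0.48 (adjusted p = 0.00305) and Lpl at 0.48 (adjusted p = 0.015), and the count was 29, where 27.3% of all genes tested were called, 14.8% as higher. It was 4 without cSirt4-Tg-TAC-MQ 2, cSirt4-Tg-TAC 4 or cSirt4-Tg-TAC 5 and 5 without cSirt4-Tg-TAC 1. The share of all genes called in these fits is not given, so these counts of 4 and 5 are read as no result about the set. Acsl1, Acacb, Cpt1b and Lpin1 kept their calls in each of the 12 fits. Without the 5 libraries 30 genes were higher and 1, Acot13, was lower at -0.32 (adjusted p = 0.0107), where 30.5% of all genes tested were called, 16.0% as higher. The cardiomyocyte marker sum was 1979317, 2039942 and 2117858 in cSirt4-Tg-TAC-MQ and 1246358, 1722765 and 2637613 in cSirt4-Tg-TAC, with 2 of 12 markers higher and 1 lower. The fibroblast marker sum was 54337, 61278 and 64311 in cSirt4-Tg-TAC-MQ and 36410.1, 110227 and 142562 in cSirt4-Tg-TAC, with 3 of 8 markers lower; the part of either list in the result was not tested. Equal totals of nuclear reads in all libraries, as another scaling, raised the median of all genes by 0.10 here and gave 21 higher genes of the 40, where 20.2% of all genes tested were called, 17.2% as higher; of all called genes 85.2% were then higher, against 57.1% before.

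After MitoQ in the control genotype no gene of the 40 was called between Con-TAC-MQ and Con-TAC, where 3.23% of all genes tested were called. All 6 Con-TAC-MQ libraries carry the numbers 20 or 21, as does Con-TAC 6, while Con-TAC 1 to 5 are numbered 7 to 14. Number and MitoQ are thus nearly aligned in this comparison too and can hardly be told apart. Of the 40, 22 differences were positive and 18 negative, with a median of 0.03 against 0.01 over all genes tested, and 4 had an unadjusted p under 0.05, while edgeR called 0 and DESeq2 1. Cpt1b came nearest at 0.84 (SE 0.26, adjusted p = 0.0669), with 77.3, 144 and 163 normalized counts in Con-TAC-MQ and 41.0, 76.0 and 115 in Con-TAC. Cpt1a was 1125, 1469.9 and 2075 in Con-TAC-MQ and 973, 1084 and 1518 in Con-TAC, a difference of 0.39 (SE 0.13, adjusted p = 0.0966). The groups overlapped in both genes. Leaving out Con-TAC-MQ 3 or Con-TAC 1 gave 2 calls and Con-TAC-MQ 4 or Con-TAC 6 gave 1. These counts, and those of edgeR and DESeq2, stand without a share of all genes and are read as no result about the set. Without the 5 libraries Acsl1, Acaca, Acacb, Cpt1a, Cpt1b and Lpin1 were higher and Acot13 and Etfb lower, where 17.1% of all genes tested were called. Between the genotypes under MitoQ, cSirt4-Tg-TAC-MQ against Con-TAC-MQ, none of the 40 was called, where 0.0737% of all genes tested were called; 35 differences were negative, with a median of -0.12 against -0.01 over all genes tested, none had an unadjusted p under 0.05, and edgeR and DESeq2 called 0. Without the 5 libraries 6 genes were lower in cSirt4-Tg-TAC-MQ (Cd36, Acadm, Acadl, Acadvl, Decr1 and Etfdh), where 2.46% of all genes tested were called, 0.639% as lower.

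Whether MitoQ acted differently in the 2 genotypes was again tested as an interaction, called for 0 of the 40 genes and 0.0% of all genes tested, with 1377 of 16275 genes and 4 of the 40 at an unadjusted p under 0.05 and 0 of the 40 called by edgeR or DESeq2. The smallest adjusted p among the 40 was 0.574. The MitoQ difference is aligned with the number in library names in both genotypes, wholly in cSirt4-Tg and nearly so in the control. Lpin1's interaction was 0.49, Dgat2's 0.87 and Lpl's 0.49 on the log2 scale. Without the 5 libraries 14 genes were called, all with a more positive MitoQ difference in hearts labelled cSirt4-Tg, where 3.73% of all genes tested were called, 1.95% in that direction. Of these, 9 are among the 13 beta oxidation genes, with Hadh at 0.68 (adjusted p = 0.00405) and Ech1 at 0.92 (adjusted p = 0.00625). For most of the 40 genes, leaving out cSirt4-Tg-TAC 6 or Con-TAC 6 moves this interaction in the called direction. Leaving out cSirt4-Tg-TAC 4 or Con-TAC-MQ 3 moves it the other way. Leaving out any single library left the count at 0.

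**Figure D4:**
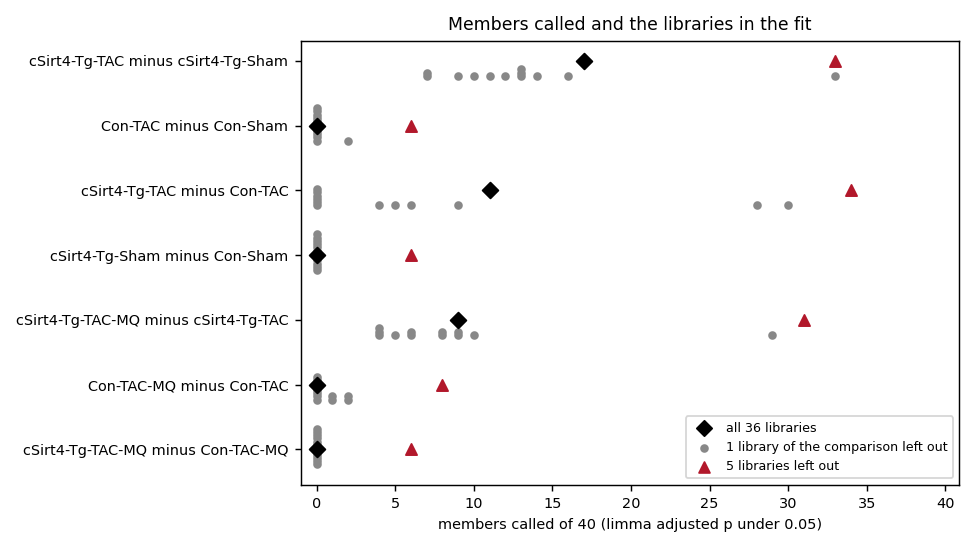
Number of the 40 genes called (limma adjusted p under 0.05) in 7 comparisons, from the fit of all 36 libraries (diamond), from fits that leave out 1 library of the comparison (grey points) and from the fit without the 5 libraries less like their group (triangle). The count for cSirt4-Tg-TAC against cSirt4-Tg-Sham runs over 7 to 33 and that against Con-TAC over 0 to 30. The share of all genes called is not shown, so the ranges alone are read as no result about the set.

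Some genes of the set followed the rest less closely. Acaca, the cytosolic acetyl-CoA carboxylase of fatty acid synthesis, had a correlation of -0.58 with the mean of the others within groups, Cpt1a one of 0.09 and Lipe one of 0.12. Acaca was 182, 245 and 1284 normalized counts in cSirt4-Tg-TAC and 186, 285 and 310.5 in cSirt4-Tg-Sham, and Lipe 780.2, 992 and 2546 in cSirt4-Tg-TAC and 705, 965 and 1098 in cSirt4-Tg-Sham. The highest value of both in cSirt4-Tg-TAC belonged to library 4, in which 6 white adipocyte markers summed to 34552 normalized counts, with Adipoq at 2678 and Cfd at 25033. In the other groups this sum was at most 203, and Adipoq was at 0 in at least 1 library of cSirt4-Tg-TAC-MQ, Con-TAC-MQ, cSirt4-Tg-Sham and Con-Sham; the part of such cells in the values of library 4 was not tested. Pdk4, the kinase that shuts pyruvate dehydrogenase and so favours fat as fuel, was 7733, 10132 and 18504 in cSirt4-Tg-TAC and 5222, 11916 and 19119.7 in cSirt4-Tg-Sham, with a difference of -0.08 (SE 0.43, adjusted p = 0.916). Across the other groups it spread as widely, at 5816, 9197 and 21097 in cSirt4-Tg-TAC-MQ, 6436, 9549 and 32390.2 in Con-TAC-MQ, 5689, 13999 and 22427 in Con-TAC and 3579, 14723 and 25038 in Con-Sham. Acot13, a small thioesterase, was 3413, 4697 and 5659 in cSirt4-Tg-TAC and 4129, 4695 and 5779.9 in cSirt4-Tg-Sham, a difference of -0.02 (SE 0.11, adjusted p = 0.941).

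With all libraries, Ucp3 and Fabp3 were called in no comparison. Ucp3 was 522, 989.6 and 1199 normalized counts in cSirt4-Tg-TAC-MQ, 365, 768 and 3544 in Con-TAC-MQ, 117, 1034 and 1601 in Con-TAC and 386, 1216 and 1843 in Con-Sham, and its coefficient of variation, 96.8%, was the highest of the 40 in Con-TAC-MQ. Fabp3 was 33772, 43399 and 50659 in cSirt4-Tg-TAC-MQ, 27935, 47043 and 53429 in Con-TAC-MQ, 38556, 58534 and 70931 in Con-TAC and 39465, 44484 and 60435 in Con-Sham. Its median in cSirt4-Tg-TAC, 49844, lay above that in cSirt4-Tg-Sham, 42916, while the medians of Cd36, Lpl and Slc27a1 lay below theirs.

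**Figure D5:**
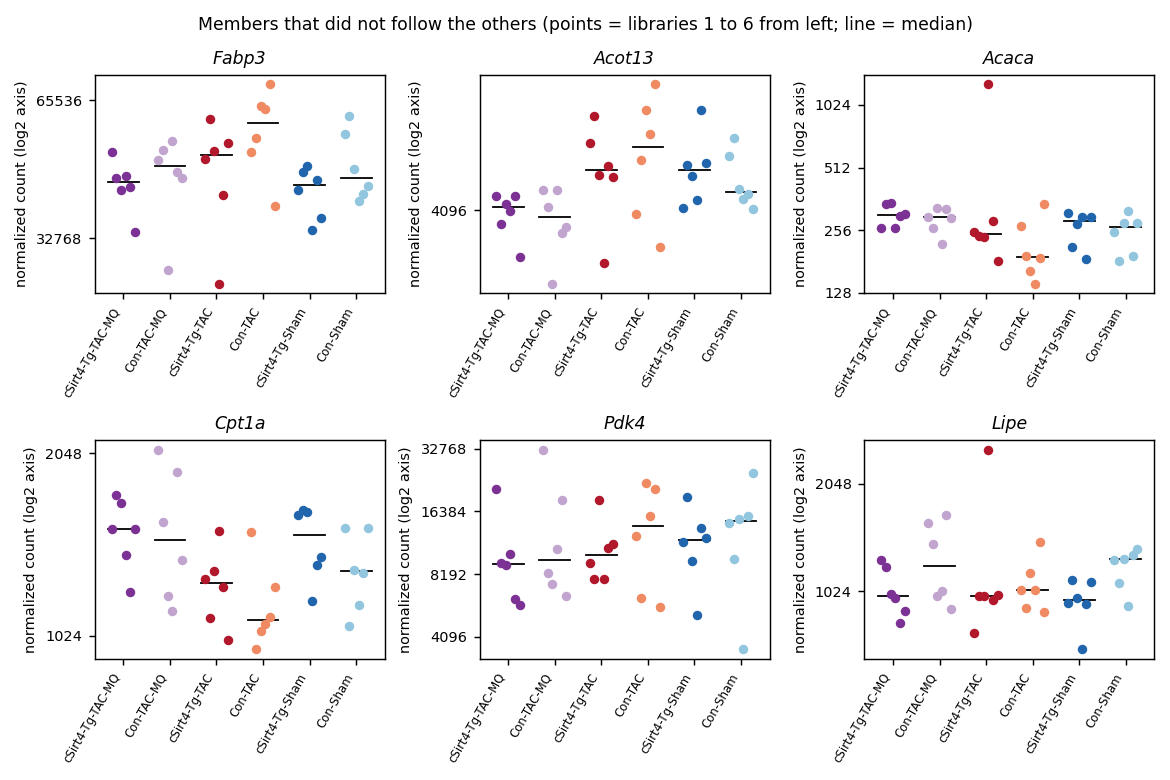
Normalized counts on a log2 axis of 6 genes that followed the others less or were not called, in all 36 libraries, with libraries 1 to 6 from left and the group median as a line. Library 4 of cSirt4-Tg-TAC is the highest of its group for Acaca (1284) and Lipe (2546), and Fabp3, Acot13, Cpt1a and Pdk4 show overlapping groups.

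Of 16 regulators of these genes, chosen by function, 8 fell in cSirt4-Tg-TAC against cSirt4-Tg-Sham and none rose: Ppara, Rxra, Ppargc1a, Ppargc1b, Esrrg, Med1, Klf15 and Prkaa2. Of all genes tested 16.7% were called in that comparison, 8.77% as lower. Ppara, the nuclear receptor for fatty acids, was 268, 361 and 562 normalized counts in cSirt4-Tg-TAC and 247, 924 and 1025 in cSirt4-Tg-Sham, a log2 difference of -0.96 (SE 0.28, adjusted p = 0.0178). Prkaa2, a catalytic subunit of AMP-activated kinase, which phosphorylates the acetyl-CoA carboxylases, was 2655, 3359 and 4937 in cSirt4-Tg-TAC and 3820.1, 5215 and 6055 in cSirt4-Tg-Sham, a difference of -0.57 (SE 0.13, adjusted p = 0.00412). Esrrg, an estrogen-related receptor of oxidative muscle, was 817, 1039 and 1435 in cSirt4-Tg-TAC and 1300.5, 1362 and 1556 in cSirt4-Tg-Sham, a difference of -0.44 (SE 0.12, adjusted p = 0.0103). With MitoQ 8 were higher in cSirt4-Tg-TAC-MQ than in cSirt4-Tg-TAC and none lower, with Ncor1 in place of Klf15, where 17.3% of all genes tested were called, 9.89% as higher. Ppara was 896, 1039.7 and 1226 in cSirt4-Tg-TAC-MQ, a difference of 1.51 (SE 0.28, adjusted p = 0.000655), and its groups did not overlap. Prkaa2 was 5049, 5869 and 6101 there, a difference of 0.75 (SE 0.13, adjusted p = 0.000338), and its groups did not overlap either. Nor did those of Med1, at least 1534 against at most 1530, and Ncor1, at least 3354 against at most 3162. Groups did not overlap in 6.57% of all genes tested. In this comparison MitoQ and the number in library names cannot be told apart.

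In the control genotype 2 of the 16 regulators fell with TAC, Rxra at -0.35 (SE 0.10, adjusted p = 0.0295) and Ppargc1b at -0.69 (SE 0.20, adjusted p = 0.0367), where 5.3% of all genes tested were called. Between Con-TAC-MQ and Con-TAC, Ppara rose by 1.09 (SE 0.28, adjusted p = 0.0277) and Nrip1, a corepressor of oxidative genes, by 0.54 (SE 0.15, adjusted p = 0.0409), where 3.23% of all genes tested were called. Ppara was 638, 1098 and 1481 normalized counts in Con-TAC-MQ and 293, 418 and 1073 in Con-TAC, and the groups overlapped. MitoQ can hardly be told apart from the number in library names in this comparison. In cSirt4-Tg-TAC against Con-TAC, Esrrg differed by -0.55 (SE 0.12, adjusted p = 0.0098) and Esrrb, its relative, by -0.40 (SE 0.12, adjusted p = 0.045), where 6.48% of all genes tested were called. No regulator was called between the genotypes under sham operation or under MitoQ. Esrrg was nonetheless lower in cSirt4-Tg-Sham, at 1300.5 to 1556 normalized counts, than in Con-Sham, at 1732 to 1908. These groups did not overlap, which held for 3.89% of all genes tested.

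Of 70 further genes of lipid handling, also chosen by function, 68 were tested. In cSirt4-Tg-TAC against cSirt4-Tg-Sham 12 fell and 3 rose, 22.1% of the list against 16.7% of all genes tested. They include Acadsb, a dehydrogenase of branched short chains, at -0.57 (SE 0.10, adjusted p = 0.000789), Vldlr, a lipoprotein receptor, at -0.75 (SE 0.15, adjusted p = 0.00214) and Acot9, a mitochondrial thioesterase, at 0.59 (SE 0.14, adjusted p = 0.0049). Acot9 was 679.8, 1009 and 1159.7 normalized counts in cSirt4-Tg-TAC and 581, 629.9 and 675 in cSirt4-Tg-Sham, so it was higher in the TAC hearts while Acot1 and Acot2 were not called. In cSirt4-Tg-TAC against Con-TAC 7 fell and 1 rose, 11.8% of the list against 6.48% of all genes tested. They include Pnpla8, a phospholipase, at -0.40 (SE 0.10, adjusted p = 0.019), Acat1, the mitochondrial acetoacetyl-CoA thiolase, at -0.60 (SE 0.15, adjusted p = 0.0234) and Plin3, a droplet coat protein, at -0.47 (SE 0.13, adjusted p = 0.0278). With MitoQ 6 were higher and 2 lower in cSirt4-Tg-TAC-MQ than in cSirt4-Tg-TAC, 11.8% of the list, a smaller share than the 17.3% of all genes tested. They include Vldlr at 0.69 (SE 0.15, adjusted p = 0.00272), Acadsb at 0.43 (SE 0.10, adjusted p = 0.00404) and Acad9, a dehydrogenase that also helps to assemble complex I, at 0.41 (SE 0.10, adjusted p = 0.00428). In Con-TAC against Con-Sham 1 fell, Acadsb at -0.36 (SE 0.10, adjusted p = 0.0351), 1.47% of the list against 5.3% of all genes tested. These shares are read as no result about the list. None was called in Con-TAC-MQ against Con-TAC, or between the genotypes under sham operation or under MitoQ.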

How the data were processed

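RNA of whole snap-frozen mouse hearts was taken with a fibrous tissue kit and made into libraries with a directional kit, per the labels' protocols. The submitters' processing notes name Trim Galore, STAR and the build mm39; their versions, the counting tool and the normalizing tool are not given. The deposited values are normalized counts, a signal per gene: whole reads divided by 1 size factor per library. In every library 100.0% of values came out as whole reads within 0.01 read, and totals were 14834719 to 60010648 reads. The values keep depth and sequence sharing between genes, and they do not correct for gene length. Exon lengths, exon overlaps between genes and shared 50-base stretches came from GENCODE M21, an annotation of an older build. No gene coordinates printed here were taken from it.

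Genes with at least 10 normalized counts in at least 6 libraries were kept, 16275 of 25626. The test was limma 3.58.1 in R 4.3.3 on log2(value + 1), with trend and robust variance, 1 mean per group over all 36 libraries, two-sided, with Benjamini-Hochberg adjustment over all genes tested and a threshold of 0.05. It ran on 7 comparisons and 2 interactions and was tested on simulated data. A library was counted as higher or lower by the mean of the other group on the log2 scale. The alternatives were pseudocounts of 0.5 and 10, a minimum of 50 or none, TMM scaling, equal totals of nuclear reads, a replicate block, the number class in library names as a covariate, the libraries numbered 7 to 14, the compared libraries alone, DESeq2 1.42.0 and edgeR 4.0.16 run on recovered reads, and each library left out; leaving out 5 libraries was added after the data were seen. Tables were made with Python 3.11.15.

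The members and lists were chosen with earlier results of these data known. All 40 members may be named by step; values were given for called members, for up to 3 per step and comparison with the smallest adjusted p, and for members whose call 1 library decides; up to 3 other pathway genes with the smallest adjusted p per comparison and every called regulator were named. The added values of Acaca, Lipe, Pdk4, Acot13, Ucp3 and Fabp3 were chosen after their values were seen. Nothing in the labels ties libraries to separate litters or days, so p-values measure the spread between these samples. Promoters came from RefSeq for GRCm38.p6, a build other than that of the files.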

Additional observations from a re-analysis of the deposited data

Results flagged for a closer look

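Each of the 40 genes was examined in each of the 6 groups, 240 sets of 6 libraries, for a highest or lowest library whose gap to the nearest other, divided by the group's range, was over Dixon's limit for 6 values. Chance gives about 1 such set in 20, and these genes are not independent. There were 40, of which 19 were high values of cSirt4-Tg-TAC 6 and 12 were low values of Con-TAC-MQ 3.

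In cSirt4-Tg-TAC 6 the normalized counts standing above the other 5 libraries were, for activation and the thioesterases, Acsl1 at 27855, Acot1 at 523.8 and Acot2 at 2164. For malonyl-CoA turnover and the carnitine shuttle they were Acacb at 11480.0, Mlycd at 4051, Cpt1b at 120.2 and Slc22a5 at 795. For beta oxidation they were Acadm at 53919.7, Acadvl at 37843, Hadh at 18556, Echs1 at 13182, Ech1 at 30546, Eci1 at 8818, Decr1 at 14013 and Acaa2 at 29324. For electron transfer they were Etfa at 25839, Etfb at 567 and Etfdh at 24085, and for lipid droplets Plin5 at 4209.7. The same library had the lowest Nppa of its group, 3535, and the highest sum of cardiomyocyte markers, 2637613.

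In Con-TAC-MQ 3 the values standing below the others were Lpl at 88267, Fabp3 at 27935, Acacb at 6794, Cpt2 at 4294, Slc25a20 at 2968, Acadl at 22805, Acads at 3997, Hadha at 23689, Hadhb at 18373, Hadh at 7424, Eci1 at 3667 and Pnpla2 at 6020.6. This library had the highest Nppa of its group, 32599.6, and the highest fibroblast marker sum, 121608.

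In cSirt4-Tg-TAC 4, the library with white adipocyte transcripts, Acaca at 1284 and Lipe at 2546 stood above the rest. Pdk4 stood high in cSirt4-Tg-TAC-MQ 1 at 21097 and in cSirt4-Tg-TAC 3 at 18504, and Ucp3 in Con-TAC-MQ 1 at 3544. Acacb stood low in cSirt4-Tg-Sham 5 at 6994, Etfa in Con-TAC 6 at 11501 and Lpl in Con-Sham 4 at 157272, and Hadh stood high in Con-Sham 2 at 19102.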

How the results depend on the processing

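Counts below are called genes of the 40, and except where the alternative itself leaves out or adds libraries or a term the cause of a change was not tested. A percentage in brackets is the share of all genes tested that was called in the same fit. Counts without one are read as no result about the 40 genes. In cSirt4-Tg-TAC against cSirt4-Tg-Sham (17, 16.7%) the count was 31 (17.5%) with libraries numbered 7 to 14 and 1 (4.37%) with the compared libraries alone. It was 10 (16.5%) with edgeR, 33 (30.3%) without the 5 libraries and 7 to 33 with 1 library left out. In cSirt4-Tg-TAC against Con-TAC (11, 6.48%) it was 5 without the filter, 6 with edgeR and 0 with the compared libraries alone. It was 29 (20.4%) with the number class as a covariate and 33 (25.2%) with libraries numbered 7 to 14. It was 34 (27.7%) without the 5 libraries and 0 to 30 with 1 left out. In cSirt4-Tg-TAC-MQ against cSirt4-Tg-TAC (9, 17.3%) it was 21 (20.2%) with equal totals of nuclear reads, 26 (15.7%) with the number class and 4 with the compared libraries alone. It was 31 (30.5%) without the 5 libraries and 4 to 29 with 1 left out. Comparisons with 0 calls gave, in Con-TAC against Con-Sham, 4 (4.78%) with the compared libraries alone, 1 with DESeq2, 6 (15.7%) without the 5 libraries and 0 to 2 with 1 left out. In cSirt4-Tg-Sham against Con-Sham they gave 11 (5.4%) with the compared libraries alone, 6 (6.0%) without the 5 libraries and 0 to 0. In Con-TAC-MQ against Con-TAC they gave 1 with equal totals of nuclear reads, 1 with DESeq2, 8 (17.1%) without the 5 libraries and 0 to 2. In cSirt4-Tg-TAC-MQ against Con-TAC-MQ the count was 6 (2.46%) without the 5 libraries, and the TAC and MitoQ interactions gave 12 (2.22%) and 14 (3.73%) there. All 3 stayed at 0 to 0 with 1 left out. Equal nuclear totals shifted the gene-wide median by 0.10 in Con-TAC against Con-Sham, where 83.6% of called genes were then higher against 49.9% before, and in Con-TAC-MQ against Con-TAC 84.4% were higher against 59.5%. No called direction turned round under any alternative run.

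The replicate numbers do not pair the libraries: same-numbered libraries had correlations of -0.48 to 0.31 in their deviations. With the number as a replicate block the counts were 15 in cSirt4-Tg-TAC against cSirt4-Tg-Sham, 6 against Con-TAC, 9 in cSirt4-Tg-TAC-MQ against cSirt4-Tg-TAC, and 0 in the others. The share of all genes called in those fits is not given, so these counts are read as no result about the set. Fits of libraries numbered 7 to 14 gave no value for comparisons with MitoQ, since no MitoQ library is in that class. The lowest total was 14834719 reads, in cSirt4-Tg-TAC 4, and with 6 libraries a group a p that misses the threshold does not show equal levels.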
